A study of Homo sapiens with 40 samples.

Results

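MBNL1, MBNL2, MBNL3, PTBP1, PTBP2, PTBP3, CELF1, CELF2, RBFOX2 and ESRP1 code for proteins that bind pre-messenger RNA and set which of its exons are kept. They were picked by symbol, and each symbol matched 1 row in all 3 deposited count tables, so they make up 10 of the 62754 genes counted. The libraries are described as human lines of T-cell acute lymphoblastic leukaemia (T-ALL), which the cell markers given below do not bear out for the shRNA libraries. They were made to ask what the RNA-binding protein QKI does to expression and splicing in T-ALL. Reads were totalled per gene, so the values below give the amount of each regulator's transcript and say nothing of its isoforms. There are 40 libraries in 10 groups of 4. Jurkat cells were electroporated with an siRNA against QKI or with a non-targeting control (NTC) siRNA, in count columns headed shNTC. Cells labelled HPB-ALL were spun with virus carrying an shRNA against QKI or a control shRNA. The untreated lines were TALL-1, LOUCY, DND-41, ALL-SIL, KARPAS-45 and HPB-ALL. RNA is described as total for Jurkat and as polyadenylated for all other groups, and KARPAS-45 and HPB-ALL cells grew in 20% serum, the rest in 10%. The knockdown replicates are called biological. Nothing says so of the untreated replicates, and p-values among lines then cover no more than the spread of these libraries, which may be technical.

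The MBNL (muscleblind-like) and CELF proteins are known from muscle, where they act on many of the same exons in opposite directions and where RNA repeats that trap MBNL proteins cause myotonic dystrophy. PTBP1 (polypyrimidine tract binding protein) represses exons in most cells. It also makes the transcripts of its neuronal paralogue PTBP2 skip an exon, which sends them to decay, while PTBP3 is the paralogue best known from blood cells. RBFOX2 reads the word UGCAUG beside exons, and ESRP1 drives the splicing programme of epithelial cells. CELF2 is the CELF protein best known from T cells. QKI itself binds the word ACUAAC or ACUAAU, best with a further UAAC or UAAU close by, in introns and in 3′ untranslated regions, where it can change the stability of the message.

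Such a QKI element, the word with a further TAAC or TAAT at most 20 bases away and not overlapping it, was searched in the longest annotated 3′ untranslated region of each gene, on the transcript's strand only. It stood in 4 of the 10 genes. The matches are printed because they are the places in these messages that carry the letters QKI is known to read, with capitals for both words (5′ to 3′, T for U, sequence from GENCODE 29 on GRCh38).
MBNL3 element a: ctgtaaataTAACtcACTAATtggtaccat
MBNL3 element b: ctaagtaACTAATcaattTAATttcaaagg
MBNL3 element c: aggACTAACtttgtgcattcataTAACaac
PTBP2 element: ACTAATcttagactaccttgtgagtTAACa
PTBP3 element a: tgtTAATaagatgtcagaataACTAATaat
PTBP3 element b: aaattaggTAATcactACTAATctttgctg
CELF2 element: ctttaattatTAACACTAACggaagagaaa
The MBNL3 elements lie at chrX:132375522-132375551, chrX:132375434-132375463 and chrX:132372320-132372349 on the minus strand, and the PTBP2 element at chr1:96815304-96815333 on the plus strand. The PTBP3 elements lie at chr9:112223106-112223135 and chr9:112217773-112217802 (minus), and the CELF2 element at chr10:11334968-11334997 (plus). Long regions often hold such letters. Of 3′ untranslated regions of 0.8 to 1.25 times the length, 67.8% held at least 1 element for MBNL3 (10349 bases), 68.4% for PTBP2 (10333 bases), 49.0% for PTBP3 (6135 bases) and 50.9% for CELF2 (6264 bases). As many as the 3 of MBNL3 stood in 14.6% of the like regions, and as many as the 2 of PTBP3 in 21.4%. The other 6 genes held no such pair of words in the region searched: MBNL1, MBNL2 and ESRP1 had 1 ACTAAC or ACTAAT each without the further word, and PTBP1, CELF1 and RBFOX2 had 0.

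QKI was lower in every knockdown library than in every control. In Jurkat it went from 148 ± 19.5 to 21.5 ± 4.22 CPM (counts per 1e6, TMM scaled; mean ± SD, n = 4), and in the libraries labelled HPB-ALL from 104 ± 2.58 to 55.8 ± 1.42. The labelled cells differ from the untreated line of that name. The 10 T cell markers checked summed to 1.07 to 1.29 CPM in the 8 labelled libraries, with CD5, CD28 and LCK at 0 in all controls, against 4472 to 5403 in untreated HPB-ALL. In the labelled controls 0 of the 10 reached a mean of 1 CPM, and in untreated HPB-ALL 10 of 10 did. The 12 myeloid markers summed to 2980 to 3575 CPM in the labelled libraries, against 15.1 to 34.7 in untreated HPB-ALL. Of the 12, 8 reached a mean of 1 CPM in the labelled controls and 7 with QKI shRNA, against 1 in untreated HPB-ALL. MPO, CD14, CD68 and S100A8 had at most 0.289 CPM in any labelled library. The 8 libraries are therefore called libraries labelled HPB-ALL throughout. Markers of muscle and neurons, where several of these regulators are best known, summed to at most 19.3 CPM in any library of the series. Among the untreated lines, the libraries numbered 4 tended to deviate from their line means together, with correlations over genes of 0.0383 to 0.497 in the 15 pairs of lines (median 0.330). Single pairs of other numbers came as high. Pairs numbered 1 reached 0.485 (median -0.018), pairs numbered 3 reached 0.479 (median 0.123), and pairs of different numbers reached 0.385 (median -0.043). Line comparisons whose call the libraries numbered 4 change are given without them too, an alternative chosen after seeing the data. Summed gene counts ran from 44.1 to 134.9 M per library (M, 1e6).

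On GRCh38 with GENCODE 29, MBNL1 (ENSG00000152601.18) lies at chr3:152243828-152465780, MBNL2 (ENSG00000139793.21) at chr13:97221434-97394120 and MBNL3 (ENSG00000076770.16) at chrX:132369317-132489968. PTBP1 (ENSG00000011304.22) lies at chr19:797075-812327, PTBP2 (ENSG00000117569.20) at chr1:96721665-96823738 and PTBP3 (ENSG00000119314.16) at chr9:112217716-112333667. CELF1 (ENSG00000149187.19) lies at chr11:47465933-47565569, CELF2 (ENSG00000048740.19) at chr10:10798397-11336675 and RBFOX2 (ENSG00000100320.24) at chr22:35738736-36028425, while ESRP1 is ENSG00000104413.18. CELF1 shares exonic bases with NDUFS3 and PTPMT1 on the other strand, whose highest group means were 138 and 19.8 CPM, and MBNL1 with its antisense gene MBNL1-AS1 (8.26 CPM). No source used here states whether counting used strand, so reads in those bases cannot be assigned to 1 gene, and values of CELF1 and MBNL1 are uncertain to that extent.

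**Figure D1:**
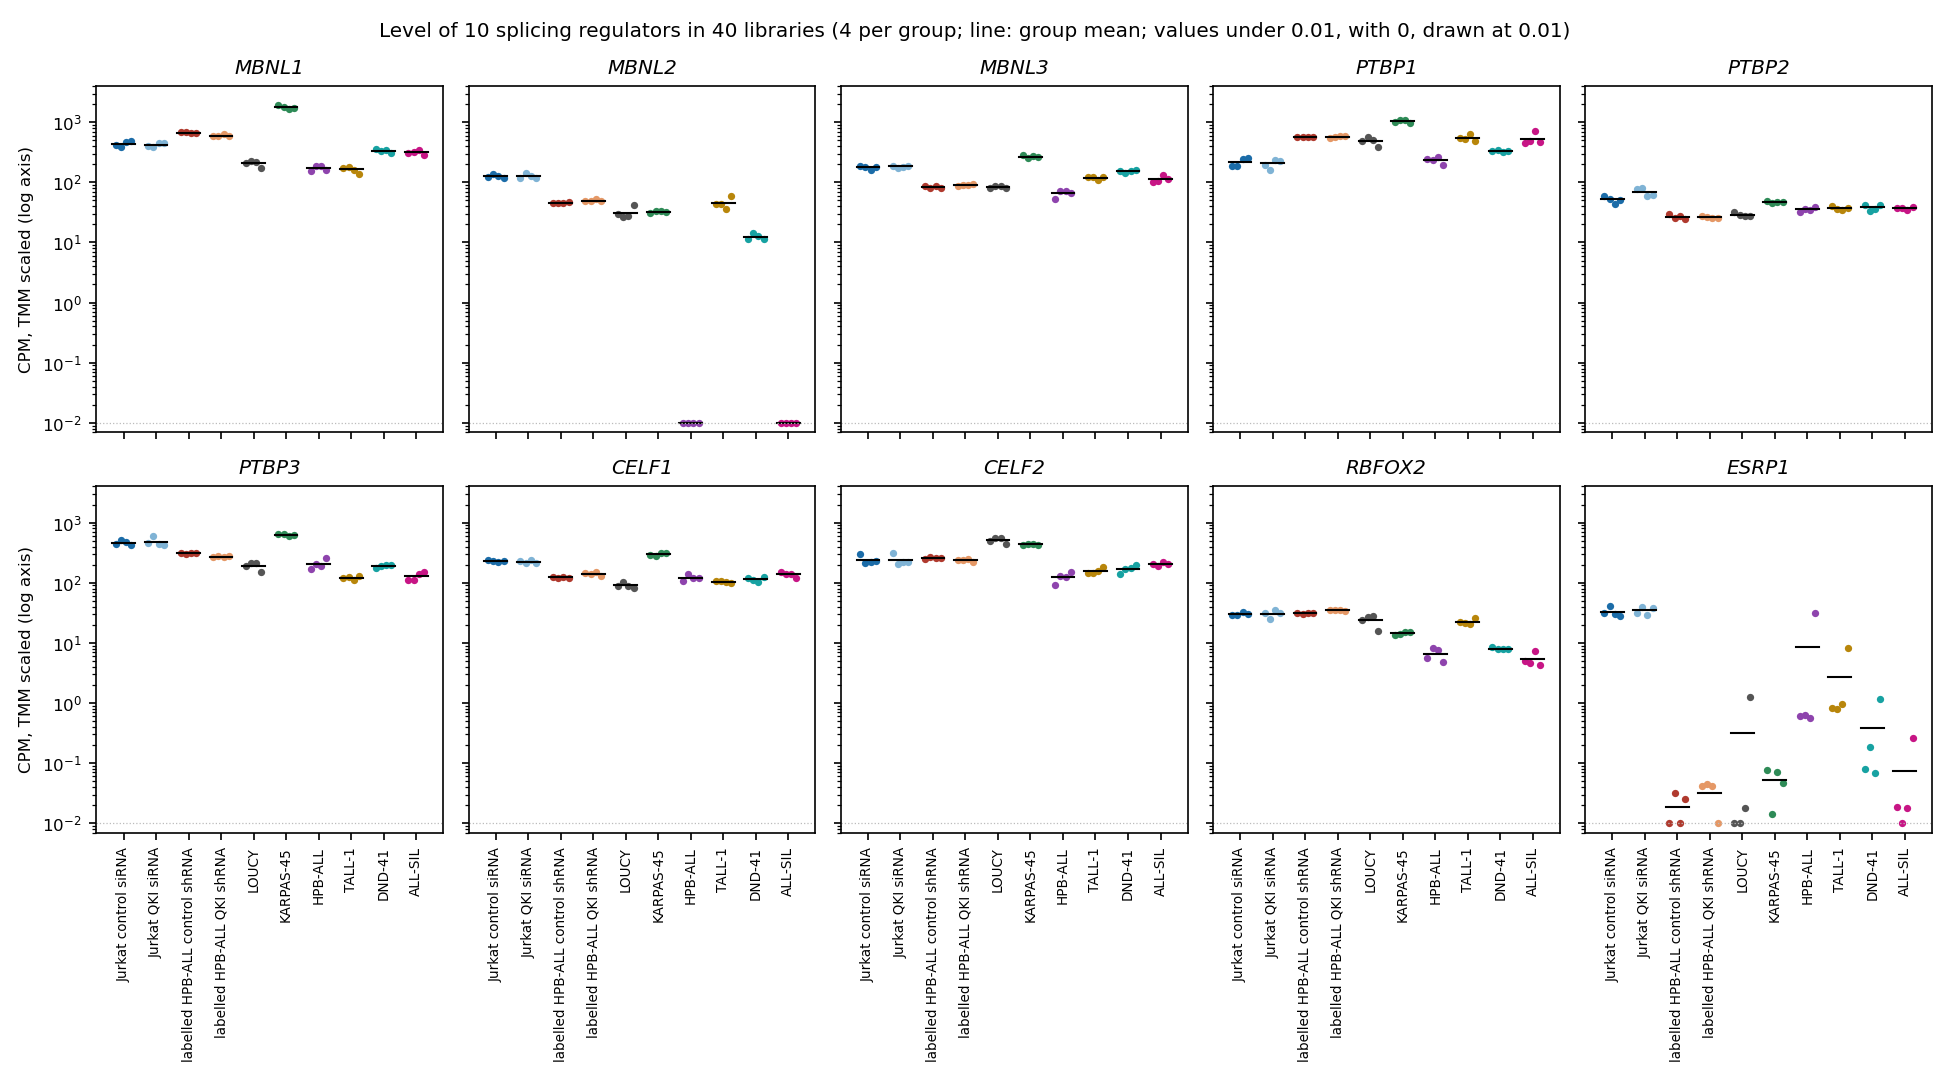
Level of each of the 10 regulators in every library (points; 4 per group) with the group mean (line), in CPM scaled by TMM within each table on a log axis, for the 10 groups; values under 0.01 are drawn at 0.01. MBNL2 sits at 0 in HPB-ALL and ALL-SIL, MBNL1 stands at 1678 to 1917 CPM in KARPAS-45, and ESRP1 is at 28.1 CPM or more in all 8 Jurkat libraries.

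Transcripts of MBNL1, MBNL3, all 3 PTBP genes, both CELF genes and RBFOX2 were found in every group. Set per kilobase of exon, so that genes can be compared, 88 of the 100 group means were at least 1 CPM per kb. PTBP1 was the highest of the 10 in 7 of the 10 groups, at 34.1 CPM per kb in HPB-ALL to 83.2 in QKI shRNA libraries of the label HPB-ALL. MBNL1 led in KARPAS-45 with 177 CPM per kb, ahead of PTBP1 with 151. PTBP3 led in both Jurkat groups, with 55.9 CPM per kb in the controls ahead of MBNL1 with 43.8 and PTBP1 with 31.6. That lead depends on the length used. Per kb of the longest transcript, MBNL1 led both, with 67.7 against 57.6 for PTBP3 in the controls and 65.8 against 59.7 with QKI siRNA. PTBP2, RBFOX2 and ESRP1 made up the lowest 3 in both Jurkat groups, both groups labelled HPB-ALL, LOUCY, KARPAS-45 and TALL-1. Levels in different tables rest on separate normalizations and on differing RNA preparations, and these cannot be told apart from the cells.

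Over the 6 untreated lines all 10 regulators differed by edgeR's F test (adjusted p from 7.09e-20 for MBNL1 to 7.6e-05 for ESRP1, n = 4 per line). The background was near saturation, since 98% of the 20348 genes tested passed. Of the 10 regulators, 8 had line means at least 4-fold apart (a log2 range of 2), beside 60.6% of all genes, and their median log2 range was 2.15, beside 2.57 over all genes. PTBP2 (0.70) and CELF1 (1.73) had the narrowest ranges. Lines were also ranked by each gene's mean and each line tested against the next: 21 of the 50 steps passed, beside 35.2% of the steps of all genes. Without the libraries numbered 4, 25 of these steps passed, 5 of them newly and 1 lost, and 10 of the 31 pairs of lines that overlapped no longer did. The shares of all genes were not computed without those libraries, and ranges over fewer libraries can only narrow. These counts are therefore not shown to be particular to the regulators. KARPAS-45 was the highest line for MBNL1, MBNL3, PTBP1, PTBP2, PTBP3 and CELF1, and it was the highest line for 24.8% of all genes tested. Scaling matters to that count: plain CPM shifted the median gene of KARPAS-45 by -0.24 on the log2 scale and those of HPB-ALL and DND-41 by 0.15, and then PTBP2 was highest in DND-41, the other 5 remaining highest in KARPAS-45.

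MBNL1, the founding member of its family, had the widest range of the 8 regulators found in every group. Its 4 libraries in KARPAS-45 had 1917, 1785, 1678 and 1712 CPM. DND-41 followed with 308 to 358 CPM and ALL-SIL with 283 to 350, LOUCY had 172 to 224, HPB-ALL 153 to 189 and TALL-1 136 to 181. No KARPAS-45 library came near those of another line: its mean of 1773 ± 106 CPM was 5.24 times that of DND-41 (log2 difference 2.39, SE 0.12, adjusted p = 5.06e-15) and 10.8 times that of TALL-1. With plain CPM the lead over DND-41 was 4.01-fold. Below it the libraries of DND-41 and ALL-SIL overlapped (adjusted p = 0.501), ALL-SIL stood above LOUCY (3.75e-05), and LOUCY, HPB-ALL and TALL-1 did not pass against the next line (0.0548 and 0.568). Without the libraries numbered 4, LOUCY (207 to 224 CPM) no longer overlapped HPB-ALL (153 to 189), and that step passed (log2 difference 0.35, SE 0.11, adjusted p = 0.00846).

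MBNL2, the paralogue most tied to brain, split the lines into those with and without its transcript. HPB-ALL and ALL-SIL had 0 counts in all 8 libraries, out of 194 and 206.7 M reads, which allows at most 0.0654 and 0.0665 CPM in the shallowest library (a floor of 3 counts, covering counting error only). DND-41 held 11.2, 14.2, 12.6 and 11.6 CPM, at least 189.5-fold higher than the HPB-ALL floor and at least 186-fold higher than that of ALL-SIL. TALL-1 had 43.3, 43.2, 36.3 and 59.0 CPM, KARPAS-45 31.0, 33.4, 32.7 and 32.1, and LOUCY 29.8, 26.3, 27.1 and 42.3, the last of each in the library numbered 4. TALL-1 stood above KARPAS-45 (log2 difference 0.49, SE 0.16, adjusted p = 0.00993), KARPAS-45 and LOUCY overlapped (0.835), and DND-41 was lower than LOUCY by 1.34 (SE 0.16). Without the libraries numbered 4 the means were 40.9 ± 4.04 CPM in TALL-1 and 27.7 ± 1.84 in LOUCY, and KARPAS-45 and LOUCY no longer overlapped, although their step did not pass (adjusted p = 0.166). Of its 6 neighbours within 1 Mb on chromosome 13, RAP2A had 78.9 CPM in HPB-ALL and 60.7 in ALL-SIL, and IPO5 had 210.3 and 229. FARP1 had 0.372 and 0.186 CPM there, 8.54 in KARPAS-45 and 6.73 in TALL-1, but also 0.122 in LOUCY and 0.239 in DND-41. HS6ST3, OXGR1 and RNF113B had at most 0.178 CPM in any line.

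MBNL3, whose protein is known for opposing muscle differentiation, ranged less. KARPAS-45 had 268 ± 13.6 CPM, DND-41 153 ± 6.55, TALL-1 119.9 ± 6.73, ALL-SIL 113 ± 13.4, LOUCY 83.2 ± 4.11 and HPB-ALL 65.7 ± 9.16 (n = 4 each). Each line differed from the next at an adjusted p under 0.05 apart from TALL-1 and ALL-SIL (0.527). Its highest mean was 4.08 times its lowest.

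PTBP1, the repressor named above, had 1039 ± 73.5 CPM in KARPAS-45 and 235 ± 28.6 in HPB-ALL, a 4.42-fold span. TALL-1 (555 ± 67.4), ALL-SIL (529.7 ± 117) and LOUCY (493 ± 77.4) did not differ beyond their spread (adjusted p = 0.725 and 0.530 for the steps). DND-41 at 331 ± 9.32 CPM was lower than LOUCY by 0.57 on the log2 scale (SE 0.14, adjusted p = 0.000852). The large spread in ALL-SIL came from its library 3, with 704 CPM beside 454 to 490.1 in the other 3.

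PTBP2, the neuronal paralogue, was low and even. Line means ran from 28.9 ± 2.33 CPM in LOUCY to 47.0 ± 0.9998 in KARPAS-45, a 1.63-fold span. DND-41 (38.3), ALL-SIL (37.3), TALL-1 (37.0) and HPB-ALL (35.3) could not be separated (adjusted p from 0.316 to 0.956 over all their pairs). KARPAS-45 stood above DND-41 (log2 difference 0.30, SE 0.09, adjusted p = 0.00703) and HPB-ALL above LOUCY (0.29, SE 0.10, adjusted p = 0.00992). Without the libraries numbered 4 the step from HPB-ALL to LOUCY did not pass (0.18, SE 0.11, adjusted p = 0.154).

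PTBP3, also called ROD1, spanned 5.19-fold. Its KARPAS-45 libraries had 653, 644, 604 and 629 CPM, above every other library. HPB-ALL (205 ± 36.4), LOUCY (192 ± 28.4) and DND-41 (191 ± 11.5) overlapped, and so did ALL-SIL (128 ± 19.5) and TALL-1 (122 ± 6.92). The step from DND-41 down to ALL-SIL passed the test (log2 difference 0.57, SE 0.13, adjusted p = 0.00045).

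CELF2 was highest in LOUCY, at 486, 553, 546 and 435 CPM, and next in KARPAS-45, at 423 to 448. These lines overlapped through LOUCY library 4, and the step did not pass (log2 difference 0.22, SE 0.13, adjusted p = 0.128). Without the libraries numbered 4 they were apart and it passed (0.31, SE 0.12, adjusted p = 0.0272), as did that from ALL-SIL to DND-41 (0.36, SE 0.12, adjusted p = 0.0158). Both stood above ALL-SIL (207 ± 12.1 CPM), with a step of 1.07 (SE 0.13, adjusted p = 6.64e-08) from KARPAS-45, and HPB-ALL was lowest at 124.5 ± 25.0 CPM, 4.06-fold under LOUCY. LOUCY and KARPAS-45 are also the lines with the least QKI, at 0 counts and 6.71 ± 0.776 CPM, while the other 4 held 88.0 to 162 CPM. Over the 6 line means, Spearman's rho between CELF2 and QKI was -0.886, given as a description of 6 points from 1 table. The same value was -0.657 for MBNL1, 0.657 for ESRP1, -0.543 for PTBP3 and -0.371 for RBFOX2, and from -0.2 to 0.029 for the other 5. Without the libraries numbered 4 it was -0.886 for PTBP3 and 0.8286 for ESRP1.

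CELF1, which promotes decay of messages with GU-rich elements as well as acting on exons, varied least after PTBP2. KARPAS-45 had 298 ± 17.8 CPM, above ALL-SIL with 138 ± 13.1 by a log2 difference of 1.11 (SE 0.10, adjusted p = 3.79e-10). No later step passed the test, from ALL-SIL through HPB-ALL, DND-41 and TALL-1 to LOUCY at 89.996 ± 7.95 CPM (adjusted p from 0.0614 to 0.487). Lines farther apart in this order did differ, such as LOUCY from ALL-SIL (log2 difference -0.61, SE 0.10, adjusted p = 7.44e-06). Among such pairs only HPB-ALL and TALL-1 did not pass (0.0527).

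RBFOX2 had its own order, with LOUCY first. LOUCY had 24.3, 26.9, 27.5 and, in the library numbered 4, 15.8 CPM, and overlapped TALL-1 with 20.5 to 26.1 CPM (adjusted p = 0.744). The overlap came from the libraries numbered 4. Without them LOUCY had 24.3 to 27.5 CPM and TALL-1 20.5 to 22.1, and the step did not pass (log2 difference 0.32, SE 0.14, adjusted p = 0.0564). KARPAS-45 (14.6 ± 0.795) was lower than TALL-1 by 0.61 on the log2 scale (SE 0.18, adjusted p = 0.00362), and DND-41 (7.97 ± 0.300) lower than KARPAS-45 by 0.88 (SE 0.18, adjusted p = 0.000124). HPB-ALL (6.55 ± 1.57) and ALL-SIL (5.29 ± 1.41) came last and did not differ beyond their spread.

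ESRP1 in the untreated lines depended on 1 library per line. In HPB-ALL the library numbered 4 had 31.8 CPM from 1742 counts, and the other 3 had 0.552 to 0.636. In TALL-1 that library had 8.09 CPM and the others 0.792 to 0.973, and in DND-41 it had 1.19 CPM and the others 0.0684 to 0.189. LOUCY showed 64 counts in library 4 and at most 0.0181 CPM elsewhere, ALL-SIL 12 counts and at most 0.0185 CPM elsewhere, while KARPAS-45 stayed at 0.0143 to 0.0759 CPM in all 4. Library 4 was thus the highest in 5 of 6 lines, as it was for 6.69% of all genes tested in at least that many. Without those libraries TALL-1 was highest (0.864 ± 0.0963 CPM), then HPB-ALL (0.598 ± 0.0425), and the other 4 lines had 0.00604 to 0.113 CPM. The difference between TALL-1 and DND-41 then passed (log2 difference 2.94, SE 0.39, adjusted p = 6.02e-07), as did that between DND-41 and LOUCY (0.00082). With all libraries no line differed from the next in order (adjusted p from 0.0743 to 0.910). MBNL2 remained at 0 in library 4 of HPB-ALL. Of the 6 epithelial markers checked, 2 had a mean of 1 CPM or more in HPB-ALL, CDH1 at 2.78 to 7.84 CPM and KRT8 at 1.63 to 2.30, and EPCAM, KRT18 and KRT19 were at 0 in all its libraries. Their part in the ESRP1 level was not tested.

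**Figure D2:**
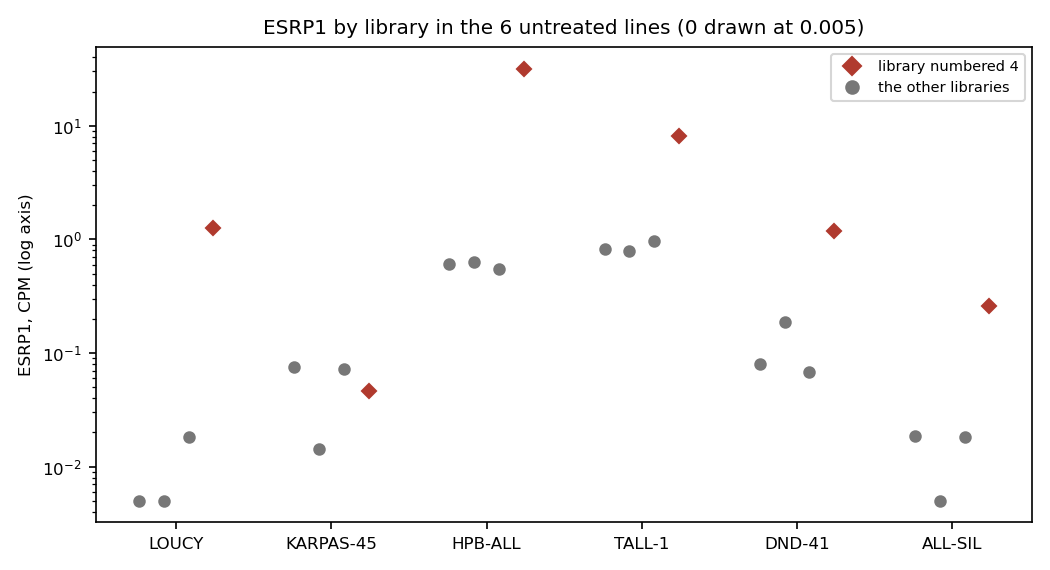
ESRP1 level in each library of the 6 untreated lines (CPM, log axis; 0 drawn at 0.005), with the library numbered 4 as a diamond and the others as circles. The diamond is the highest point in HPB-ALL (31.8 CPM), TALL-1, DND-41, LOUCY and ALL-SIL, but not in KARPAS-45.

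Jurkat was the group with steady ESRP1. Its 8 libraries had 28.1 to 41.7 CPM, with 32.9 ± 5.97 in the controls and 34.6 ± 5.26 with QKI siRNA. The 6 epithelial markers summed to 5.45 to 11.9 CPM in these libraries and to at most 13.2 in any group, and their part in the level of ESRP1 was not tested. The libraries labelled HPB-ALL had 0 to 6 ESRP1 counts each.

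The make-up of each family was set out as the share of each paralogue in the family's counts per kb within a library, which does not depend on library size. MBNL1 gave the largest share of the MBNL family in all groups, from 46.2% ± 5.46 in TALL-1 to 86.1% ± 0.669 in KARPAS-45. MBNL2 gave 30.8% ± 2.96 in Jurkat controls and 26.1% ± 5.18 in TALL-1, but 3.20% ± 0.239 in KARPAS-45, where its CPM was close to that of LOUCY. MBNL3 gave 10.7% to 27.7% in the lines.

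In the PTBP family PTBP1 gave 55.3% to 81.9% in the untreated lines and 67.7% in the controls labelled HPB-ALL, while in Jurkat controls PTBP3 gave 61.1% ± 4.35 and PTBP1 34.5% ± 4.65. By these shares all 8 Jurkat libraries had PTBP3 above PTBP1, at 56.0% or more against 39.7% or less. Of the other 32 libraries, HPB-ALL library 4 did too, with 49.8% against 45.5%. The order in single libraries depends on the length used. Per kb of the longest transcript, the mean shares of PTBP3 and PTBP1 in Jurkat controls came closer, at 53.1% and 42.8%. PTBP2 never gave more than 6.71% in a library. CELF2 made up 84.2% ± 0.936 of its pair in LOUCY and 49.0% to 58.9% in the other lines.

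**Figure D3:**
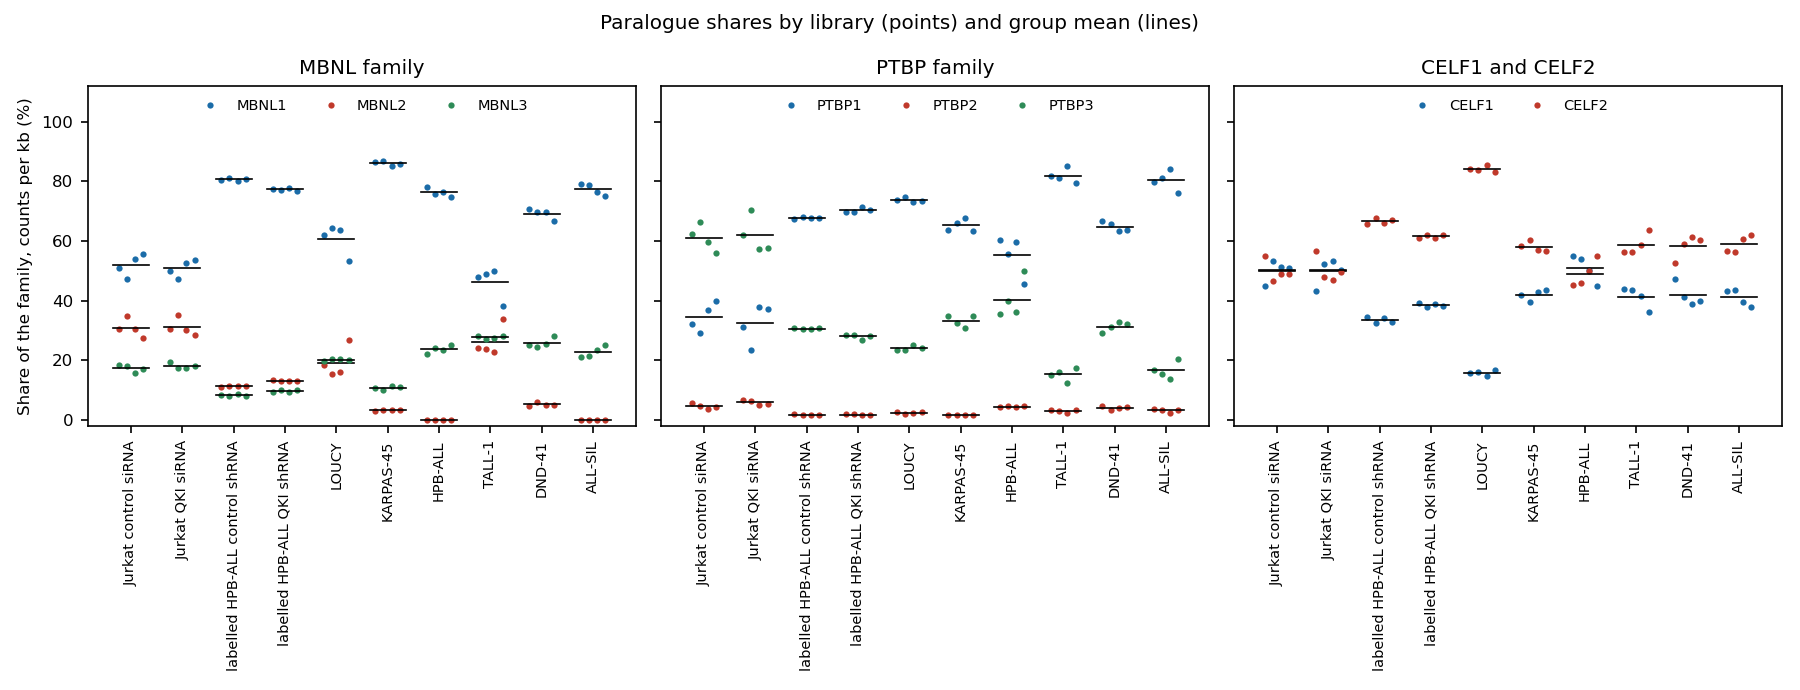
Share of each paralogue in its family's counts per kb (%), by library (points) with group means (lines), for the MBNL, PTBP and CELF families in the 10 groups. PTBP3 leads in Jurkat and PTBP1 in the lines, MBNL1 reaches 86.1% in KARPAS-45, and CELF2 reaches 84.2% in LOUCY.

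Depleting QKI in Jurkat left the 10 regulators near their control levels, with PTBP2 the farthest from it. PTBP2 had 60.3, 53.7, 44.0 and 51.0 CPM in control libraries 1 to 4 and 77.7, 80.6, 59.5 and 62.6 with QKI siRNA. Each QKI siRNA library was higher than the control of its number, by 1.29, 1.499, 1.35 and 1.23 times, and the groups overlap between 59.5 and 60.3 CPM. Its log2 fold change was 0.42 (SE 0.14) and was not called by edgeR (adjusted p = 0.999983). Same-numbered Jurkat libraries deviated together, and with the replicate number as a block it was 0.42 (SE 0.07, adjusted p = 0.0689), the 11th smallest p of 21296 genes but still not a call. Leaving out pair 2 brought that adjusted p to 0.0431, and leaving out pair 1, 3 or 4 to 0.653, 0.137 or 0.352, with fold changes of 0.37 to 0.46.

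The other 9 regulators had log2 fold changes of -0.08 to 0.07 in Jurkat. MBNL1 was lower in 4 of 4 pairs, by ratios of 0.949 to 0.9995, with a fold change of -0.04. PTBP1, the repressor of PTBP2, was lower in 3 of 4 pairs and had 217 ± 33.4 CPM in controls and 206 ± 34.9 with QKI siRNA. None of the 10 was called by edgeR, DESeq2, limma-voom or the fit with the pairs, and 1 had an unadjusted p under 0.05. None had groups that do not overlap, beside 1.07% of all genes. The background was thin too: 0.0047% of 21296 genes were called, QKI itself, and 0.0423% with the pairs. The median absolute log2 fold change was 0.047 over the 10 regulators and 0.11 over all genes. Simulated counts of this comparison over 21296 genes were fitted without the pairs. None of the 1.2-fold changes, 5.97% of the 1.5-fold and 50% of the 2-fold were recovered, so changes of 1.5-fold or less were mostly not detectable in that fit. The fit with the pairs was not simulated.

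**Figure D4:**
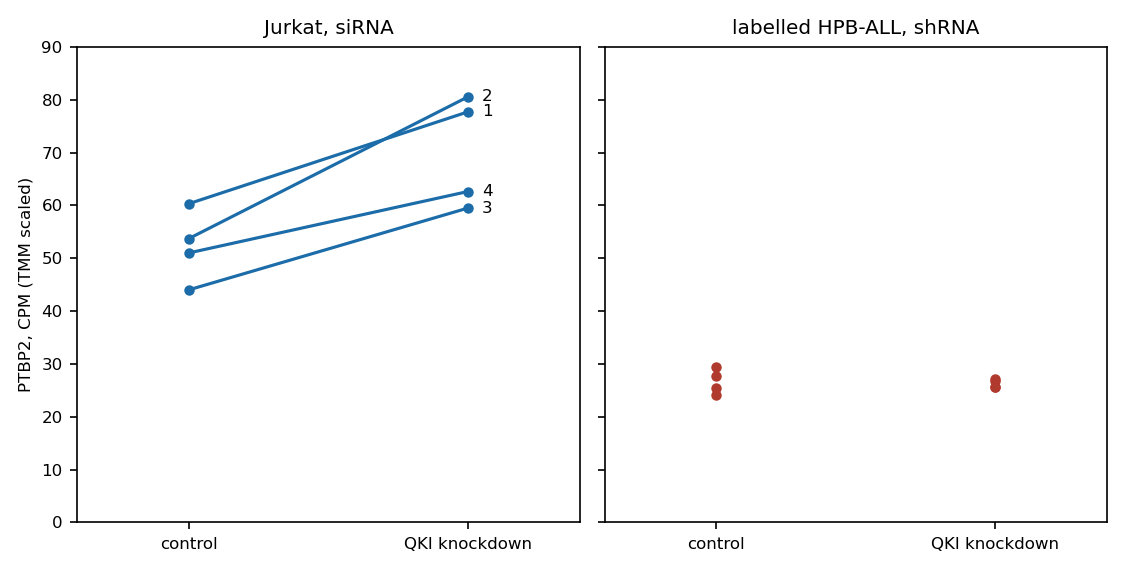
PTBP2 level (CPM) in control and QKI knockdown libraries of Jurkat (left, with lines joining libraries of the same number) and of the cells labelled HPB-ALL (right, points only). All 4 Jurkat lines rise, from 44.0 to 60.3 CPM in controls to 59.5 to 80.6, while the labelled HPB-ALL values stay within 24.1 to 29.4.

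In the libraries labelled HPB-ALL, 9 regulators could be tested, ESRP1 falling under the filter. MBNL1 and PTBP3 fell and CELF1, RBFOX2 and MBNL2 rose, all by small amounts, from 0.12 to 0.21 on the log2 scale. These 5 of 9 stand beside 23.2% of the 17974 genes tested, 12.8% higher and 10.4% lower. The groups did not overlap for 6 of the 9, beside 26.2% of all genes. The median absolute log2 fold change was 0.12 for the 9 and 0.13 for all genes tested. QKI fell by 0.90 (SE 0.03, adjusted p = 1.1e-07).

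MBNL1 had 679.6, 677, 663 and 670.5 CPM in the controls and 589, 584, 628 and 579.7 with QKI shRNA. Every knockdown library lay under every control, and the fold change was -0.18 on the log2 scale (SE 0.04, edgeR adjusted p = 0.0077). PTBP3 had 312, 306, 307 and 313 CPM in the controls and 267, 275, 271 and 277 with QKI shRNA, again without overlap, at -0.18 (SE 0.03, adjusted p = 0.00243).

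CELF1 had 125, 121, 125 and 120.0 CPM in the controls and 143, 141, 151 and 132 with QKI shRNA. It rose by 0.21 (SE 0.04, adjusted p = 0.00531). CELF2, its paralogue, had lower values instead, going from 251, 265, 254 and 257 CPM to 235, 242, 250.2 and 225, without overlap. Its log2 fold change of -0.11 was not called by edgeR (SE 0.04, adjusted p = 0.0713) and was called by DESeq2 (0.0355) and by edgeR without QKI shRNA library 3 (0.0485). RBFOX2 had 31.1, 30.2, 31.7 and 32.0 CPM in the controls and 34.7, 34.99, 35.9 and 33.5 with QKI shRNA, a rise of 0.15 (SE 0.04, adjusted p = 0.0123).

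MBNL2 had 45.8, 46.1, 45.3 and 46.3 CPM in the controls and 49.2, 48.8, 52.2 and 48.5 with QKI shRNA. The rise of 0.12 (SE 0.04, adjusted p = 0.0362) lost its call with RLE size factors (0.0505), without the filter (0.0573), with the replicate block (0.0887) and when any control, QKI shRNA library 1 or QKI shRNA library 3 was left out (0.0535 to 0.103). MBNL3 overlapped, with 79.5 to 86.4 CPM in the controls and 86.2 to 92.2 with QKI shRNA (0.11, SE 0.04, adjusted p = 0.0581), and passed only when control library 3 was left out (0.0453). PTBP1 had 572 ± 0.818 and 572.5 ± 24.1 CPM (adjusted p = 0.983). PTBP2 had 29.4, 25.5, 27.6 and 24.1 CPM in the controls and 27.1, 26.7, 25.7 and 25.6 with QKI shRNA, which differ by -0.02 on the log2 scale (SE 0.06, adjusted p = 0.819).

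**Figure D5:**
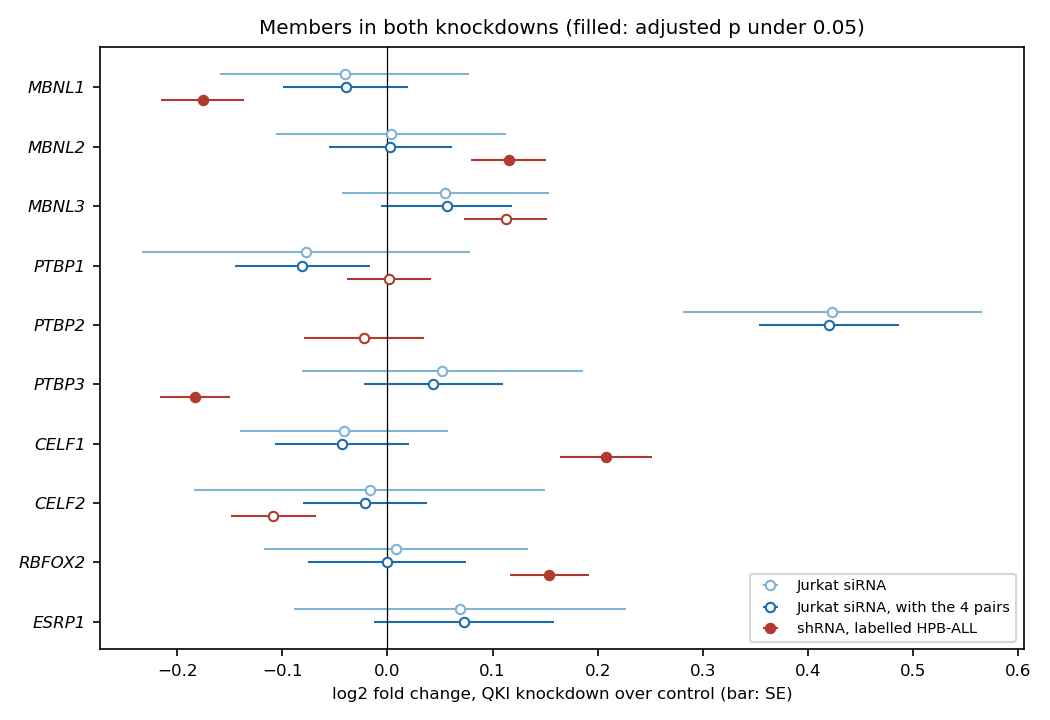
log2 fold change of each regulator, QKI knockdown over control, with its SE, for Jurkat without and with the replicate block and for the libraries labelled HPB-ALL; filled points have an adjusted p under 0.05. Filled points are MBNL1, MBNL2, PTBP3, CELF1 and RBFOX2 in the libraries labelled HPB-ALL, and the largest value is PTBP2 in Jurkat at 0.42.

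The family shares in the libraries labelled HPB-ALL moved with these levels. MBNL1 went from 80.6% ± 0.291 to 77.3% ± 0.3901 of its family, MBNL2 from 11.2% ± 0.126 to 13.1% ± 0.0414 and MBNL3 from 8.17% ± 0.351 to 9.58% ± 0.422. PTBP3 went from 30.6% ± 0.270 to 28.0% ± 0.757 and PTBP1 from 67.7% ± 0.295 to 70.3% ± 0.843, while CELF2 went from 66.6% ± 0.965 to 61.5% ± 0.571 against CELF1. In these 6 shares no knockdown library overlapped a control, which gives 0.0286, the smallest p that 4 against 4 allows in a two-sided exact permutation test, and an adjusted p of 0.0667 over the 14 shares tested. No share therefore passed after adjustment. The PTBP2 share in Jurkat went from 4.44% ± 0.781 to 5.81% ± 0.768 (exact p = 0.0857, adjusted p = 0.171).

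The cell markers moved between these arms as well. The myeloid markers summed to 3415 to 3575 CPM in the controls labelled HPB-ALL and to 2980 to 3112 with QKI shRNA. LYZ had 700.4 to 798 CPM in the controls and 425 to 489 with QKI shRNA, and AZU1 558 to 585 and 397 to 438. ELANE, the most abundant, did not follow them, with 1580 to 1716 CPM in the controls and 1678 to 1746 with QKI shRNA. Their part in the changes of the regulators was not tested, and in bulk samples fewer cells of a type and less RNA per cell cannot be told apart.

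Whether the knockdown effect differed between the experiments was tested over 15730 genes, of which 0.0254% were called, and 3.06% with the replicate block. For PTBP2 the effect in the libraries labelled HPB-ALL was lower than that in Jurkat by 0.46 on the log2 scale (SE 0.17, adjusted p = 0.638). With the block it was lower by 0.45 (SE 0.09, adjusted p = 0.0163), and it stayed past the threshold with any Jurkat pair left out (0.0248 to 0.0404). The numbers did not pair the libraries labelled HPB-ALL, so in those libraries the block rests on a shared number alone. CELF1 differed by 0.23 (SE 0.09, adjusted p = 0.668), PTBP3 by -0.25 (SE 0.14, 0.885) and MBNL1 by -0.15 (SE 0.10, 0.932), and no regulator but PTBP2 was called by either fit. The experiments differ in line, vector, RNA preparation and degree of depletion, which cannot be told apart.

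Between the controls labelled HPB-ALL and the untreated line of that name, which are in separately normalized tables, most of the regulators stood apart in level. MBNL2 stood at 45.9 ± 0.451 CPM in the labelled controls and at 0 in the untreated line, RBFOX2 was 4.77 times as high, MBNL1 3.89 times, PTBP1 2.43 times and CELF2 2.06 times. PTBP2 was 0.754 times as high, CELF1 1.01 times, and ESRP1 had 0.0187 CPM against 8.40 ± 15.6.

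Other regulators of splicing were counted on lists for comparison. Of 32 with restricted or switch-like roles, 20 were tested in the libraries labelled HPB-ALL and 4 were called, a share near the 23.2% of all genes. RBM10 rose (0.33, SE 0.03, adjusted p = 6.9e-05) and ZFP36L1 (-0.34), SRRM3 (-0.34) and HNRNPLL (-0.38), the regulator of CD45 exons in T cells, fell. In Jurkat none of the 21 other regulators and 5 cofactors tested was called by edgeR, DESeq2 or limma-voom, where edgeR called 0.0047% of all genes. Of the 5 PTB and MBNL cofactors tested, RAVER2, a partner of PTB, rose in the libraries labelled HPB-ALL by 0.34 (SE 0.05, adjusted p = 0.000853). In the lines, 11 of 21 other regulators and 2 of 5 cofactors had a log2 range of 2 or more, in shares below the 60.6% of all genes. RAVER2 had 92.9 CPM in KARPAS-45 and 0 in ALL-SIL. CELF5 was the only paralogue outside the 10 to pass the filter, with 34.4 CPM in TALL-1 and 1.85 to 10.9 in the other lines.

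The genes most like each regulator were sought over the 24 libraries of the lines, by Pearson's r of log2 CPM among 11060 genes, as a description with no test. PDK2 and EFNB1 were nearest to MBNL2 (0.994 and 0.992), MED12L to CELF2 (0.989), NOC2L to PTBP1 (0.984) and ARID2 to PTBP3 (0.982). ZNF569 was nearest to MBNL1 (0.966), NSD1 to MBNL3 (0.965), NECTIN2 to RBFOX2 (0.956) and DEPDC4 to ESRP1 (0.874). The libraries of a line share that line, so these values rest on 6 lines rather than 24 independent points.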

How the data were processed

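The authors deposited 3 tables of unnormalized counts, as whole reads for each gene. The submitters' processing notes name Trimmomatic 0.39, STAR 2.7.11b and GRCh38; no source used here gives the counting tool, its strand setting or the annotation. Per the labels, a stranded messenger RNA kit was used for the cells labelled HPB-ALL. Rows that name no gene held 13.0% to 15.1% of that table's reads and entered neither library sizes nor tests. Summed gene counts were 103.8 to 134.2 M (1e6) in Jurkat controls and 68.4 to 115.7 with QKI siRNA, 81.0 to 127.1 in controls labelled HPB-ALL and 119.8 to 134.9 with QKI shRNA, and 44.1 to 84.0 in the lines. All replicate pairs differed beyond counting noise (chi-square over its degrees of freedom 12.7 to 348, genes of at least 20 counts).

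All genes were fitted with edgeR 4.0.16 in R 4.3.3 (filterByExpr, TMM, quasi-likelihood F test, Benjamini-Hochberg adjustment, threshold 0.05): each knockdown on its 8 libraries, their difference on 16 and the lines on 24. CPM were scaled by TMM within each table. The SE is the fold change over the square root of F. Shares used union exon length and a two-sided exact permutation test. Alternatives were DESeq2 1.42.0, limma-voom 3.58.1, RLE factors, no filter, each library left out, other scalings and a replicate block. Same-numbered Jurkat libraries deviated together (correlations 0.644 to 0.803, 8 of 8 closest to their own number), so the block is given beside the Jurkat results. The pair of LOUCY columns headed with the same number could not be told apart and was left out of blocked fits. Leaving out the libraries numbered 4, or Jurkat pairs in the blocked fit, was chosen after seeing the data.

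The 10 genes and the gene and marker lists were chosen with earlier results of these data known. All 10 regulators are named, with QKI, at most 4 called genes per list and knockdown by p, list members with the widest range over lines, and the genes most correlated with a regulator; not all that this rule picks are printed. Of the cofactor list, MATR3 matched no unique row. The fits without the replicate block were tested on simulated counts.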

Additional observations from a re-analysis of the deposited data

Results flagged for a closer look

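Of 98 combinations of a regulator and a group of 4 libraries, 8 had a library whose gap to the nearest of the others exceeded Dixon's 95% critical share of the group's range; chance alone gives about 1 in 20. They fell on 3 regulators, and 5 of the 8 were ESRP1 in libraries numbered 4 of the untreated lines. ESRP1 stood at 31.8 CPM in that library of HPB-ALL (others 0.552 to 0.636), at 8.09 in TALL-1 (0.792 to 0.973), at 1.25 in LOUCY (0 to 0.0181), at 1.19 in DND-41 (0.0684 to 0.189) and at 0.261 in ALL-SIL (0 to 0.0185).

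ESRP1 was also set apart at 0 CPM in QKI shRNA library 4 labelled HPB-ALL, where the others had 0.0416 to 0.0444 CPM from 5 or 6 counts. PTBP1 stood at 704 CPM in library 3 of ALL-SIL, above 454 to 490.1 in the others. PTBP2 stood at 32.4 CPM in a LOUCY library whose column shares its number with another LOUCY column, above 27.5 to 28.1 in the others.

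PTBP2 responded differently to the knockdown in the 2 experiments by the test with the replicate block. Its effect in the libraries labelled HPB-ALL minus that in Jurkat was -0.45 (SE 0.0859, edgeR adjusted p = 0.0163). The same test without the block gave -0.46 (adjusted p = 0.638).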

How the results depend on the processing

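The counts of called regulators kept their side of the threshold: 0 in Jurkat except that PTBP2 was called in the blocked fit without pair 2 (adjusted p = 0.0431), 4 to 6 in the libraries labelled HPB-ALL, and 10 in the lines except with DESeq2, which called 9 and gave no adjusted p for ESRP1. In the difference between knockdowns 1 was called (PTBP2) with the replicate block and 0 otherwise. Over all genes, Jurkat gave 2 calls with DESeq2 and 9 with the block, and the difference gave 102 with DESeq2, 481 with the block and 3 to 10 with a library left out; the cause was not tested. The numbers pair no libraries labelled HPB-ALL (same-number correlations -0.207 to 0.035) and were not taken to pair the lines (-0.209 to 0.497). With the block 4 regulators were called in the libraries labelled HPB-ALL.

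Values near 0 changed sign. In Jurkat MBNL2 was -0.0031 without the filter and RBFOX2 -0.00059 with the block, and in the libraries labelled HPB-ALL PTBP1 was -0.0034 with RLE factors and -0.0034 with DESeq2. With a library left out, log2 fold changes in Jurkat ran from -0.17 to 0.11 for CELF2, -0.0091 to 0.21 for ESRP1, -0.093 to 0.0091 for MBNL1, -0.052 to 0.054 for MBNL2, -0.16 to 0.017 for PTBP1, -0.064 to 0.11 for PTBP3 and -0.064 to 0.095 for RBFOX2. They ran from -0.018 to 0.031 for PTBP1 and -0.065 to 0.028 for PTBP2 in the libraries labelled HPB-ALL, and the difference ran from -0.25 to 0.050 for CELF2 and -0.0045 to 0.15 for PTBP1. Changes of shares in Jurkat ran from -1.78 to 2.07 points for CELF2, -2.62 to 0.130 for MBNL1, -1.08 to 1.57 for MBNL2, -3.95 to 0.818 for PTBP1 and -2.07 to 2.54 for PTBP3, and the PTBP2 share labelled HPB-ALL from -0.0142 to 0.0945. Of the 100 group means, 27 moved by more than 1 SD when all tables were scaled together and 19 with plain CPM.

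The Jurkat comparison without the pairs recovered few small changes in simulated counts, while that labelled HPB-ALL, over 17974 genes, recovered 59.7% of 1.2-fold changes. A regulator called in the second and not in the first is therefore not shown to differ.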

Other observations

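Several regulators outside the 10 were present in some lines and near or at 0 in others. KHDRBS3, a paralogue of the splicing regulator SAM68, had 29.5 CPM in LOUCY and at most 0.137 in the other untreated lines. In Jurkat, scaled separately, it had 74.3 CPM in the controls and 81.2 with QKI siRNA. NOVA1, a neuronal splicing regulator, had 16.3 CPM in ALL-SIL, at most 0.0183 elsewhere among the untreated lines and 4.44 in Jurkat controls. ELAVL4, a neuronal binder of AU-rich RNA, had 8.77 CPM in TALL-1 and 5.52 in HPB-ALL, and RBPMS2 had 5.34 CPM in KARPAS-45. Among the regulators of exon choice, RBM47 had 27.5 CPM in controls labelled HPB-ALL and at most 0.244 in Jurkat and the untreated lines, and HNRNPLL had 1.48 CPM there and 18.8 to 143 in the lines. DDX6, a helicase of messenger RNA decay, had 492 CPM in KARPAS-45 and 98.8 in LOUCY.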
